A study of Mus musculus with 80 samples.

Results

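The cytosolic ribosomal proteins are the protein subunits of the ribosome that translates nuclear mRNAs. Their genes were taken from the deposited table by symbol: Rpl or Rps followed by a digit, with Rpsa and Rplp0 to Rplp2, and without the Rps6k kinases. The rule found 63 of the 18138 genes in the table. Of these, 56 had a detection p under 0.05 on at least 4 of the 80 arrays, as did 11352 genes in all, and these were tested. They comprised 26 genes named for the small (40S) and 30 for the large (60S) subunit. Rps19bp1 fits the symbol rule but encodes a protein that binds RPS19 and is not part of the ribosome. Rps4y2 and Rps3a are older symbols of Rps4l and Rps3a1.

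The livers came from male B6C3F1 mice, a hybrid laboratory strain, and were measured on Illumina bead arrays. Ethinyl estradiol (EE2), a synthetic estrogen, was fed at 1, 2.5, 5 and 10 ppm for 7 d, and prednisone (PRED), which becomes the active glucocorticoid prednisolone in the liver, at 1.25, 2.5, 5 and 25 ppm for 7 d. Androstenedione (A4), an androgen from which testosterone and estrone are made, was given by gavage in 0.5% carboxymethyl cellulose for 7 d, with daily doses of 2, 10, 20 or 50 mg/kg. Each compound's top dose was repeated in a 28 d group. Every treated group had 4 arrays, the untreated feed controls had 6 at each duration and the gavage vehicle controls 4, which gives 19 groups. The labels do not give ages, and do not say that the arrays of a group came from separate animals, so the p-values rest on a spread between samples that could be technical only. The labels name no transgene or deletion, so all groups share only the strain and sex.

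Each ribosome holds 1 copy of most of these proteins, and cells make them in step with ribosomal RNA. In mammals their mRNAs begin with a run of pyrimidines, the 5′ terminal oligopyrimidine (TOP) tract, through which the mTORC1 kinase controls their translation in response to nutrients and growth signals. The liver makes most plasma proteins and is rich in ribosomes, and its ribosome content is known to change with feeding and with growth.

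The start of these genes is shown because the TOP tract is the sequence feature they are known to share. RefSeq promoters of build GRCm38.p6 matched 51 of the 63 members, 45 of them tested. In the 15 bases before to 15 bases after the annotated start, a run of at least 7 bases that are all C or T on the transcript strand was present at 24 of the 45 (53.3%), against 1872 of the 8506 matched genes tested. The match is a description of the annotated start, which need not be the start used in liver. Capitals mark the longest such run. Members with a run that the results below turn on were the following, from chr2:32961697-32961726 (plus strand), chr2:39005117-39005146 (minus), chr4:86857353-86857382 (minus), chr7:45128731-45128760 (minus), chr7:109519180-109519209 (plus), chr17:27635230-27635259 (minus) and chr3:28805493-28805522 (plus).
Rpl12: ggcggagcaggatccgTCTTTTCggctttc
Rpl35: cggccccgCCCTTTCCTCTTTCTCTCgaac
Rps6: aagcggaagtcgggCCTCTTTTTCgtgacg
Rpl13a: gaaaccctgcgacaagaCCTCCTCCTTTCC
Rpl27a: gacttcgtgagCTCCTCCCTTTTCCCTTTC
Rps10: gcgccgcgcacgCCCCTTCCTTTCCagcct
Rpl22l1: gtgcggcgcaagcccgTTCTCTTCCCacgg

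Other members that carry the results had no such run in this window. Not every member named below is printed, so the printed sequences do not give the share with a run. Left out are Rpl22, Rpl36a, Rps3, Rpl9 and Rps7 without a run and Rps12, Rps25 and Rpl38 with one, among others. Printed without a run are those at chr11:97782425-97782454 (minus), chrX:102189377-102189406 (minus), chr5:115559452-115559481 (plus) and chr17:46782642-46782671 (minus).
Rpl23: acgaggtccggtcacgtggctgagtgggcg
Rps4x: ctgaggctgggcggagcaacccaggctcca
Rplp0: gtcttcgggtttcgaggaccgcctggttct
Rpl7l1: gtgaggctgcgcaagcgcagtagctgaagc

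Between 7743 and 9328 genes were detected per array, and the array medians, at 105.7 to 106.4, lay at background. The number of arrays and signal over background limit the precision. Hepatocyte markers were present, with Apoa1 at a mean intensity of 14260, although the row for Alb had a mean of only 174.2 and was detected on 47 arrays. No pair of arrays had more than 0.105% of rows equal, so no array repeats another.

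Ribosomal protein genes were among the brightest on the arrays. Over the 80 arrays the median of their mean intensities was 3339, against 159.1 over all genes tested. Of the 56, 38 exceeded 1000, 5 lay under 150, and 9 were among the brightest 1% of genes tested. Among the highest means were those of Rplp1 (14445), an acidic protein of the ribosomal stalk, and Rpl41 (13999), the shortest of the subunits, and those of Rpl9 (10273) and Rps12 (9381). The lowest were those of Rpsa (101), also known as the laminin receptor, Rps15a (110) and Rpl22l1 (115), all close to background. An intensity depends on the probe as well as on the transcript, so these levels do not rank the transcripts, and probes of this family can also pick up near-identical gene copies.

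Detection was complete for most members, with 48 detected on all 80 arrays and 8 on 4 to 79. Rpsa lay just inside the detection rule with 4 arrays. Just outside lay Rpl3l, Rpl6 and Rps23, each detected on 1 array, and Rpl14, Rpl17, Rpl39l and Rplp2, detected on none, with mean intensities of 96.3 to 99.5. The deposited detection p did not always follow the signal: Rpl37 had a mean of 2871 but was detected on 10 arrays, and Rps27a, which encodes a ubiquitin fusion, had 480 and 22. Rpl4 (385) was detected on 19 and Rplp0 (127.5) on 9. A detection call missing for these members does not show that their signal was low.

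Some ribosomal protein transcripts rose in each EE2 comparison with feed control, from 5 to 31 of the 56, and none fell. At 1 ppm for 7 d, 15 of 56 rose by limma's moderated test on log2(intensity + 16), at a Benjamini-Hochberg adjusted p under 0.05 over all 11352 genes, against a background of 6.29% of all genes risen. The 2.5 ppm group had 7 risen members (background 7.58%), the 5 ppm group 12 (background 12.8%) and the 10 ppm group 5 (background 18.1%). At 10 ppm for 28 d 31 rose, against a background of 14.8%. The share of members risen was therefore above the background at 1, 2.5 and 5 ppm and at 28 d, and below it at 10 ppm for 7 d, where 8.93% of members rose. Among all genes, 7.06%, 7.02%, 11.6% and 15.2% fell at the 7 d doses and 13.8% at 28 d. All 7 d doses were compared with the same 6 controls, and folds on the log2(intensity + 16) scale understate the change of low genes.

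The median member change followed the same order. It was 0.42 on the log2 scale at 1 ppm, 0.28 at 2.5 ppm, 0.32 at 5 ppm and 0.11 at 10 ppm for 7 d, and 0.55 at 10 ppm for 28 d, while the median of all genes tested stayed within 0.01 of 0 in each. The number of members with a positive change was 51, 48, 49, 39 and 56 in that order. All 4 treated arrays lay above all controls for 29 members at 1 ppm (background 3.01%), 7 at 2.5 ppm (5.53%), 3 at 5 ppm (5.66%), 4 at 10 ppm (9.18%) and 13 at 28 d (13.4%).

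**Figure D1:**
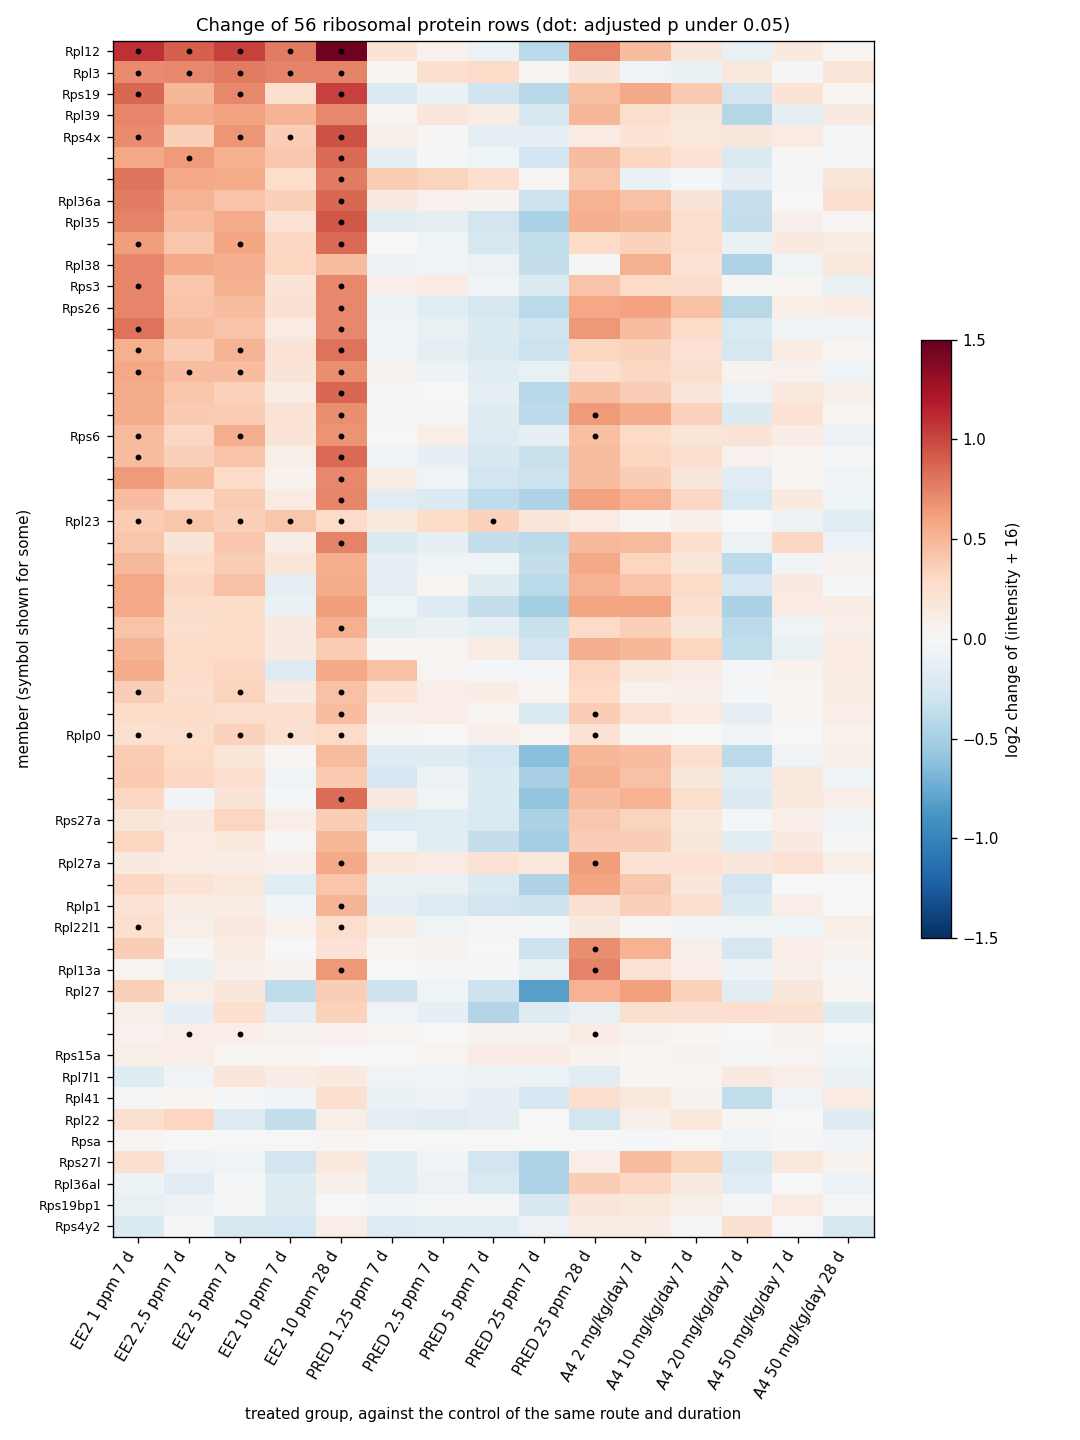
Change of each of the 56 ribosomal protein rows (vertical axis, ordered by mean change under EE2, with symbols for some of the members described) in the 15 treated groups (horizontal axis) against the control of the same route and duration, as the log2 change of intensity + 16 (colour scale); dots mark an adjusted p under 0.05. The EE2 columns are mostly red, with 15, 7, 12, 5 and 31 dots, the PRED 25 ppm column is mostly blue at 7 d and red with 8 dots at 28 d, and the A4 columns have no dots.

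Single arrays moved these counts. At 1 ppm the count was 6 without EE2 replicate 1, 8 without replicate 4 and 21 without replicate 3, and at 2.5 ppm it was 3 without replicate 2 or 3. At 5 ppm it was 7 without replicate 1 and 21 without replicate 3, and at 10 ppm 8 without replicate 4. At 28 d it ranged from 22 to 34 over the 10 arrays left out in turn. The rise was of different size within chips: of the 2 chips that held both groups, the median member change at 28 d was 0.06 on one and 1.07 on the other, and with chip as a block 25 members rose and the median was 0.42. For 10 ppm at 7 d the within-chip medians were 0.06 and 0.66, and the block left 3 risen members and a median of 0.03. Here and below, the share of all genes called in such refits is not given, so their counts stand without a background.

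The largest change in every EE2 comparison was that of Rpl12, which encodes the protein at the base of the stalk where elongation factors dock. In the 7 d feed controls its intensities were 2935, 2346, 2866, 3074, 2915 and 2699. They were 8069, 5965, 4176 and 6505 at 1 ppm, and 4794, 8438, 4099 and 3247 at 10 ppm. All 8 of these treated arrays lay above all 6 controls, as did those at 2.5 ppm (3412 to 6552) and 5 ppm (3185 to 8232). The log2 change was 1.10 ± 0.26 (SE) at 1 ppm (adjusted p = 0.00225), 0.89 at 2.5 ppm (adjusted p = 0.0124), 1.03 at 5 ppm (adjusted p = 0.00212) and 0.78 at 10 ppm (adjusted p = 0.0159). The change at 10 ppm fell to 0.51 (adjusted p = 0.15) without EE2 replicate 2, the array with 8438, and to 0.61 (adjusted p = 0.082) with chip as a block.

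At 28 d Rpl12 read 5327, 6552, 4169 and 6852 under EE2 and 1446, 3644, 2206, 2720, 1517 and 1452 in the controls. The groups did not overlap, but the controls spread more widely than at 7 d. The change was 1.46 ± 0.26 (adjusted p = 9.71e-06), a 2.76-fold rise, and stayed between 1.37 and 1.63 whichever array was left out.

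Rplp0, the protein that joins the stalk to the ribosome, had a dim probe. It read 108.9 to 124.3 in the 7 d controls, 120.3 to 185.9 at 1 ppm, 120.7 to 165.2 at 2.5 ppm, 135.5 to 175.8 at 5 ppm and 131.6 to 165.0 at 10 ppm. It passed the test at each dose, but was undetected on every array of both groups at 1 ppm (adjusted p = 0.00833) and 10 ppm (adjusted p = 0.00221), so no fold is given there. At 2.5 ppm (adjusted p = 0.00199) and 5 ppm (adjusted p = 4.04e-05) it was detected on 1 of 4 EE2 arrays each and on 0 of 6 controls. Its means there were 147.4 and 155.6 against 118.8, and no fold is given for these doses either. At 28 d, where 3 of 4 EE2 arrays and 1 of 6 controls detected it, it rose by 0.28 ± 0.065 on the log2 scale (adjusted p = 0.000453). Rplp1, the bright acidic stalk protein, rose at 28 d by 0.52 ± 0.16 (adjusted p = 0.00966), and its change was 0.21 at 1 ppm (adjusted p = 0.42) and -0.04 at 10 ppm for 7 d (adjusted p = 0.87).

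Rpl3, which lies next to the centre where peptide bonds form, read 5091, 2514, 5039, 5356, 6116 and 5027 in the 7 d controls. Under EE2 at 10 ppm it read 8400, 7737, 7609 and 7737. Every treated array lay above every control, and control replicate 2 stood well below the other controls. The change was 0.74 ± 0.18 (adjusted p = 0.000858), and 0.57 without that control array, still past the threshold. The change was 0.71 at 1 ppm, 0.72 at 2.5 ppm and 0.78 at 5 ppm, so it differed by less than 1 SE over the 4 doses. At 28 d Rpl3 read 7933, 9584, 8793 and 9198 against controls of 4091 to 6337 (median 5395), a change of 0.75 ± 0.18 (adjusted p = 0.000846).

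Rpl23 lies at the interface between the subunits and also binds the p53 regulator MDM2. It read 3062, 2664, 3688, 4041, 3702 and 3385 in the 7 d controls and 4810, 4521, 4278 and 4472 under EE2 at 10 ppm. The groups did not overlap, and the rise was small and even, at 0.41 ± 0.088 (adjusted p = 0.000172). The changes at 1, 2.5 and 5 ppm were 0.39, 0.42 and 0.36. At 28 d the EE2 arrays read 4743, 5119, 4675 and 4932, and 1 of the 6 controls, at 4874, lay within that range while the others read 3479 to 4247. The change there was 0.29 ± 0.088 (adjusted p = 0.00845).

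**Figure D2:**
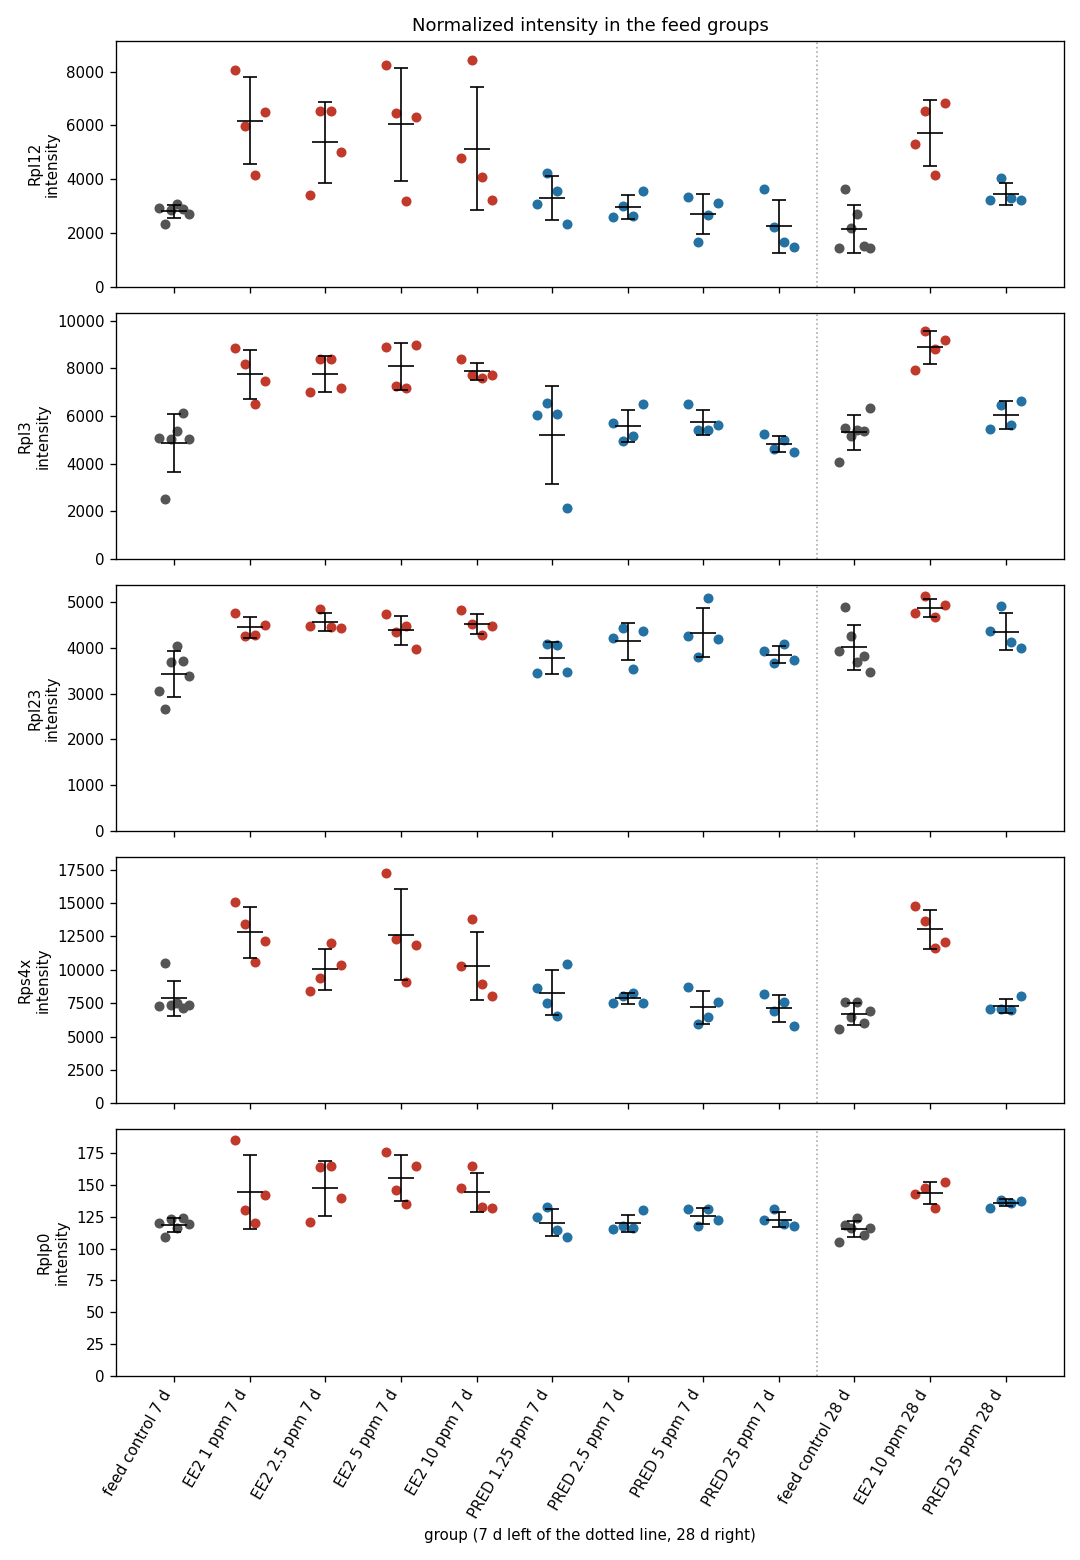
Normalized intensity (vertical axes, linear, from 0) of Rpl12, Rpl3, Rpl23, Rps4x and Rplp0 in the 12 feed groups (horizontal axis); each point is an array (grey feed control, red EE2, blue PRED) and the bars give the mean ± SD. EE2 arrays of Rpl12 reach 8438 at 10 ppm for 7 d, against at most 3074 in the 7 d controls, while the Rpl23 groups differ by less and spread less.

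Of the small subunit, Rps4x, an X-linked core protein, rose most in relation to its spread. It read 7305, 10502, 7336, 7488, 7162 and 7336 in the 7 d controls, and 15045, 13401, 10557 and 12178 at 1 ppm. The lowest EE2 array lay just above control replicate 2, which stood apart from the other controls. The change was 0.70 ± 0.14 at 1 ppm (adjusted p = 0.000163) and 0.66 at 5 ppm (adjusted p = 0.000167). At 10 ppm for 7 d, with 10295, 13830, 8957 and 8029, the groups overlapped and the change was 0.37 ± 0.14 (adjusted p = 0.0296). That call was lost when chip was a block (0.30, adjusted p = 0.13) and without EE2 replicate 2 (0.22, adjusted p = 0.25). At 28 d the arrays read 14789, 13664, 11632 and 12078 against 5609, 7609, 6446, 7609, 6018 and 6950, well apart, and the change of 0.96 ± 0.14 (adjusted p = 6.76e-08) had the smallest adjusted p of any member.

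Rps19, the small-subunit protein whose gene is mutated in Diamond-Blackfan anaemia in people, read 3526, 3048, 3120, 2864, 3343 and 3713 in the 7 d controls. It read 7792, 5160, 5259 and 5875 at 1 ppm and 3875, 6401, 3176 and 2796 at 10 ppm. The first set lay wholly above the controls and the second overlapped them. The change was 0.86 ± 0.24 at 1 ppm (adjusted p = 0.00987) and 0.24 at 10 ppm (adjusted p = 0.47). At 28 d Rps19 rose by 1.03 ± 0.24 (adjusted p = 0.000582), from 1637 to 3376 (median 2437) in the controls to 4202, 5517, 3958 and 6393.

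Rps6, the substrate of the S6 kinases downstream of mTORC1, rose at 1 ppm (0.48 ± 0.15, adjusted p = 0.0255) and at 5 ppm (0.54, adjusted p = 0.00523). At 28 d it rose by 0.67 ± 0.15 (adjusted p = 0.000405), with 5653, 4439, 5453 and 5670 against controls of 2579 to 4457 (median 3156). The lowest EE2 array lay just under the highest control. Rps3, which lines the channel where mRNA enters, rose by 0.73 ± 0.22 at 1 ppm (adjusted p = 0.02) and by 0.72 at 28 d (adjusted p = 0.01).

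At 28 d members of both subunits rose. Among the largest were Rpl35 (0.94 ± 0.28, adjusted p = 0.00702), which sits at the exit of the peptide tunnel, and Rpl36a (0.86 ± 0.28, adjusted p = 0.0125), which lies near the site where spent tRNA leaves. Rpl35 read 7772, 10397, 5288 and 9719 under EE2 against 2661 to 6337 in the controls, so 1 EE2 array lay among the controls. Rps12 (0.86), Rps7 (0.85) and Rpl9 (0.70) also rose. Rpl37 averaged 3626 against 2516 (adjusted p = 0.0425) and Rpl4 460 against 336 (adjusted p = 0.00149), each undetected on all 6 controls and the first also on 3 of 4 EE2 arrays, so no fold is given. The 25 members not called at 28 d had changes from 0.00 (Rps19bp1) to 0.72 (Rpl39, adjusted p = 0.0515).

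The 28 d controls were themselves lower than the 7 d controls for most members. The median difference between them was -0.28, with 6 members positive and none past the threshold (background 1.02% in either direction). At an unadjusted p under 0.05 there were 15 members and 1868 of the 11352 genes. The change under EE2 at 28 d minus that at 7 d had a median of 0.48 and was positive for 54 members. No member passed limma's test of that difference (background 2.55%). An unadjusted p under 0.05 was found for 16 members and for 1808 of the 11352 genes. The smallest adjusted p was 0.057, for Rps7. Without EE2 10 ppm 7 d replicate 2, 4 members passed.

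The trend over the EE2 doses at 7 d, scored in equal steps from 0 for the control to 4 for 10 ppm, was flat for most members, with a median of 0.01 per step. It rose for 5 (background 18.7%) and fell for 1 (background 15.2%). Rpl3 rose by 0.16 per step (adjusted p = 0.00217), Rpl23 by 0.08 (adjusted p = 0.00121) and Rpl7l1, a nucleolar relative of Rpl7, by 0.06 (adjusted p = 0.0119). The Rpl7l1 call was lost with the number of detected genes as a covariate (adjusted p = 0.11). Rplp0 passed too (adjusted p = 0.00113), but was undetected on most of these arrays, so no size is given. Its call was lost when the fit held only the groups compared (adjusted p = 0.0718). Rpl12 rose by 0.15 (adjusted p = 0.0456), a call lost in 12 of 22 fits that left out 1 array, with values down to 0.10.

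Rpl22 was the member that fell with dose. It binds RNA and in mice is known to hold down the mRNA of its paralogue Rpl22l1. It read 684, 709, 701, 662, 854 and 647 in the 7 d controls. The arrays of the 1 ppm group read 883, 1091, 561 and 910 and those of the 2.5 ppm group 1069, 801, 801 and 904. The 5 ppm group had 437, 1023, 699 and 462, and the 10 ppm group 732, 391, 510 and 621. The arrays at the lower doses lay mostly above the controls and those at the higher doses mostly below, with overlap in every group. The trend was -0.11 ± 0.033 per step (adjusted p = 0.00552), and -0.08 (adjusted p = 0.0554) without EE2 10 ppm replicate 2. Against control no single dose passed the test: the change was 0.32 (95% interval 0.03 to 0.61) at 2.5 ppm, adjusted p = 0.14, and -0.35 (-0.65 to -0.06) at 10 ppm, adjusted p = 0.0539. At 28 d the arrays read 747, 739, 844 and 792 against controls of 670 to 817, a change of 0.09 (-0.20 to 0.39).

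Its paralogue Rpl22l1 lay near background, at 99.7 to 124.5 in the 7 d controls, of which 4 of 6 were detected. It rose by 0.25 ± 0.087 at 1 ppm (133.4, 153.0, 110.6 and 150.8, adjusted p = 0.044) and by 0.26 at 28 d (124.4, 147.8, 111.6 and 133.8 against 96.1 to 113.2, adjusted p = 0.018), where 3 of 6 controls were detected. The groups overlapped in both. Its trend over dose was 0.00 per step (-0.04 to 0.04). The Rpl7l1 arrays at 10 ppm for 7 d differed from control by 0.11 (-0.05 to 0.28).

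Most other members with a role or a paralogue of their own did not pass the test. Rpl36al, an autosomal copy of Rpl36a, had changes of -0.07 (-0.45 to 0.31) at 1 ppm and 0.07 (-0.31 to 0.45) at 28 d, where the X-linked Rpl36a had 0.77 (adjusted p = 0.0524) and 0.86. The difference between these paralogues was not tested. Rps27l, a paralogue of Rps27 that p53 induces, had 0.24 and 0.15, and the ubiquitin fusion Rps27a had 0.18 and 0.37, none past the threshold. Rpl38, which in mice is known for its part in translating Hox mRNAs, and Rpl39, of the exit tunnel, had 0.73 and 0.74 at 1 ppm and missed the threshold (adjusted p = 0.0676 and 0.0759). Rpl41 had -0.02 at 1 ppm and 0.24 at 28 d. Rps4y2 read 189 to 348 in the 7 d controls and had -0.22 at 1 ppm, and Rps19bp1 had -0.11. Rpsa, at background, had 0.03 in both.

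**Figure D3:**
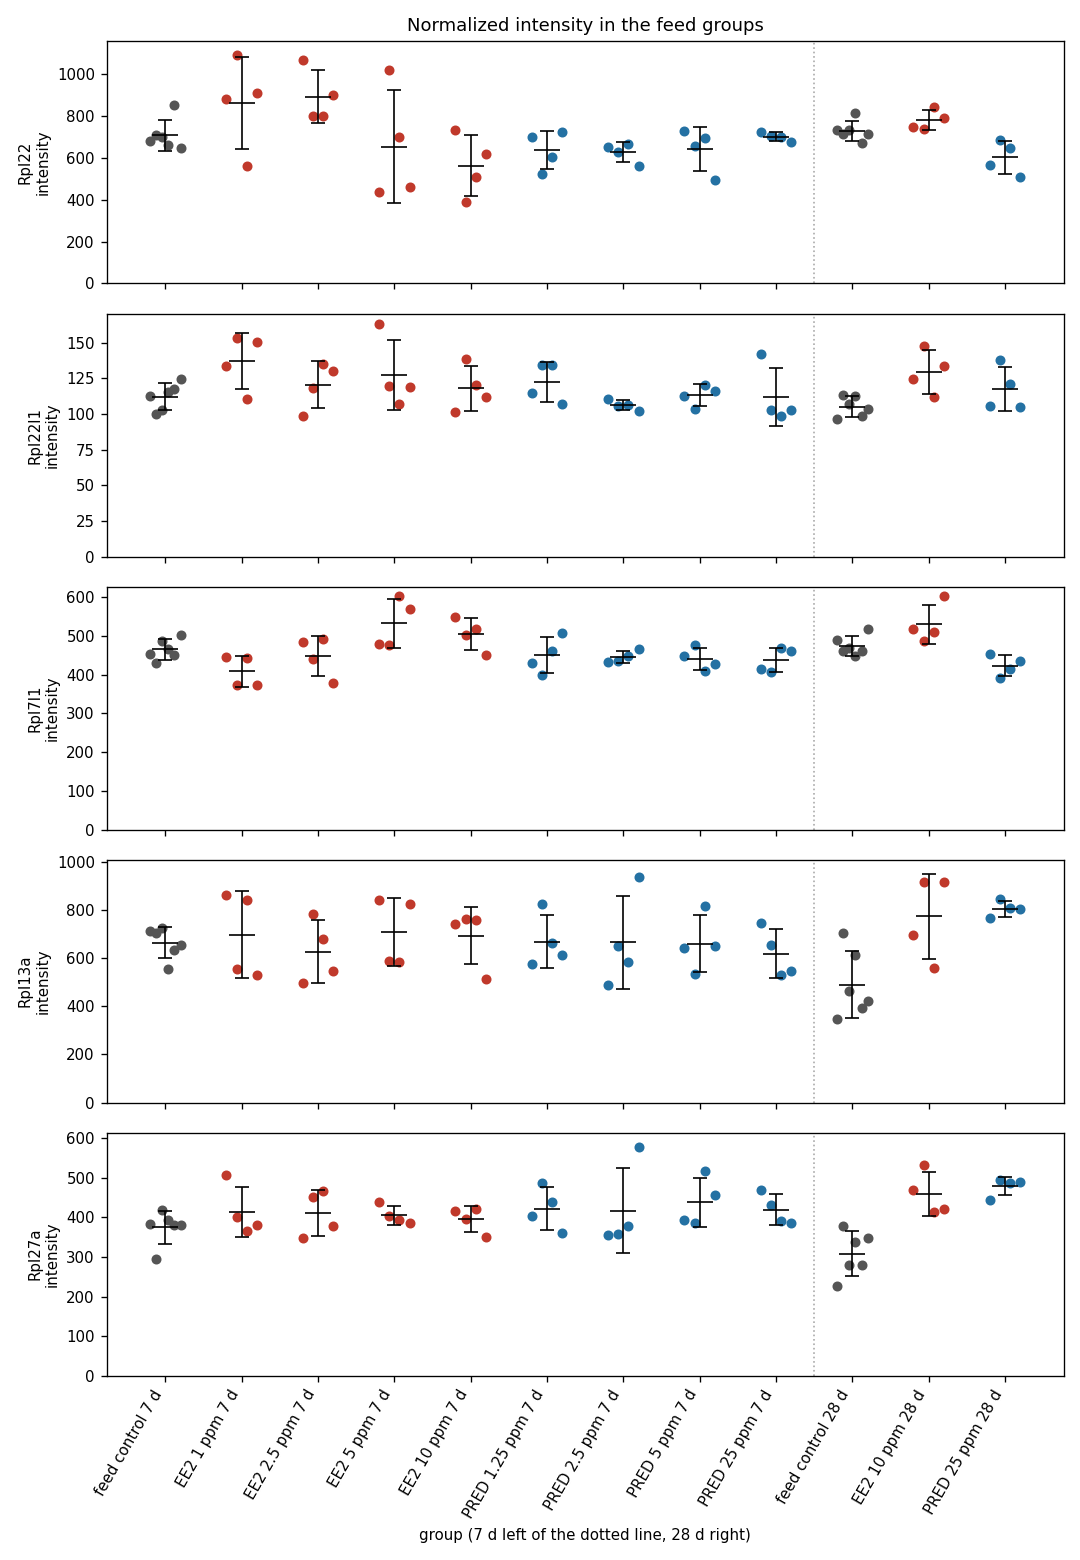
Normalized intensity (vertical axes, linear, from 0) of Rpl22, Rpl22l1, Rpl7l1, Rpl13a and Rpl27a in the 12 feed groups (horizontal axis); points are arrays (grey feed control, red EE2, blue PRED) and bars the mean ± SD. Rpl22 falls from a mean of 894 at EE2 2.5 ppm to 564 at 10 ppm for 7 d, and Rpl13a and Rpl27a are lower in the 28 d controls (means 490 and 309) than in both 28 d treated groups.

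The mean over the members varied from array to array within groups as well. The mean log2 value of the 56 members ran from 10.27 to 11.53 over the 80 arrays. In the 7 d feed controls it was 10.92 ± 0.11 (SD, n = 6), and in the 28 d feed controls 10.66 ± 0.33 (n = 6). It was 11.33 ± 0.13 at EE2 1 ppm, 11.19 ± 0.22 at 2.5 ppm, 11.23 ± 0.37 at 5 ppm, 11.02 ± 0.38 at 10 ppm for 7 d and 11.20 ± 0.27 at 28 d (n = 4 each). The spread within a group was thus often as large as the difference between groups. Of the 56 members, between 17 and 48 (median 35) were highest on the 1 array of their group with the highest mean. That array was picked by the mean of these same members, so a high count was built in. The count therefore does not measure whether members moved together.

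Mitochondrial ribosomal proteins, which serve a separate ribosome and of which 67 of 72 were tested, shared much of that variation. Their mean was highest on the same array as the cytosolic mean in 14 of 19 groups and lowest on the same array in 17. Their counts under EE2 differed from those above, though the difference was not tested: at 1, 2.5, 5 and 10 ppm for 7 d 0, 4, 3 and 2 of 67 rose and 4, 4, 8 and 24 fell, and at 28 d 10 rose and 5 fell. The 24 are 35.8% of the list, against 15.2% of all genes fallen, and its median there was -0.22. With their array mean as a covariate, a choice made after seeing the data, 39, 27, 40 and 37 cytosolic members were called at 1, 2.5, 5 and 10 ppm for 7 d, all risen except 1 at 10 ppm, and 34 rose at 28 d. That covariate was itself lower at 10 ppm for 7 d (9.35) than in the controls (9.56). The share of all genes called in the fit with this covariate is not given here, so its counts stand without a background.

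Markers of macrophages and of red cells and the number of detected genes also differed under EE2. Of 10 macrophage and Kupffer cell markers tested, 9 rose at 10 ppm at both durations, with a median change of 1.18 at 7 d, while 1, 0 and 2 rose at 1, 2.5 and 5 ppm. Of all genes, 18.1% and 14.8% rose at 10 ppm for 7 and 28 d, and 6.29%, 7.58% and 12.8% at the lower doses. The summed intensity of these markers was 4474 to 6509 in the 7 d controls and 5448 to 24428 at EE2 10 ppm. At 28 d it was 3439 to 5679 in the controls and 15662 to 17906 under EE2. Cd5l, a defining marker of these cells, was detected on no array. Of 6 erythroid markers tested, 1, 2, 2 and 2 fell at 1, 2.5, 5 and 10 ppm for 7 d and 1 at 28 d (16.7%). Of all genes, 7.06%, 7.02%, 11.6% and 15.2% fell at these 7 d doses and 13.8% at 28 d. None of the 6 erythroid markers had a positive change in any of these comparisons. Their sum was 2636 to 5828 under EE2 at 28 d and 6725 to 13930 in the controls, without overlap, and 1445 to 18582 over the EE2 arrays at 7 d against 10249 to 16538. Epb42, one of this list, was detected on no array. The hepatocyte sum was 57369 to 62765 in the 28 d controls and 47781 to 54147 under EE2. Of the 9 hepatocyte markers tested there, 3 fell and 0 rose. The change was positive for 4 of them, and the median was -0.008. Within the 5 EE2 groups, the array with the highest macrophage sum had the lowest ribosomal mean in 3 and the highest in 0. The array of 10 ppm for 7 d with the lowest macrophage sum, replicate 2 with 5448, had the highest ribosomal mean of all 80, 11.53. In none of the other EE2 groups did the array with the lowest macrophage sum have the highest ribosomal mean. Detected genes numbered 8875 to 9328 at 28 d under EE2 and 8019 to 8726 in the controls. With their number as a covariate, also a later choice, 36, 9, 36 and 23 members rose at 1, 2.5, 5 and 10 ppm for 7 d and 47 at 28 d. These counts too are given without the share of all genes called in the same fit. The part of cell content in the result was not tested, and in bulk tissue more cells of a type and more RNA per cell cannot be told apart.

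**Figure D4:**
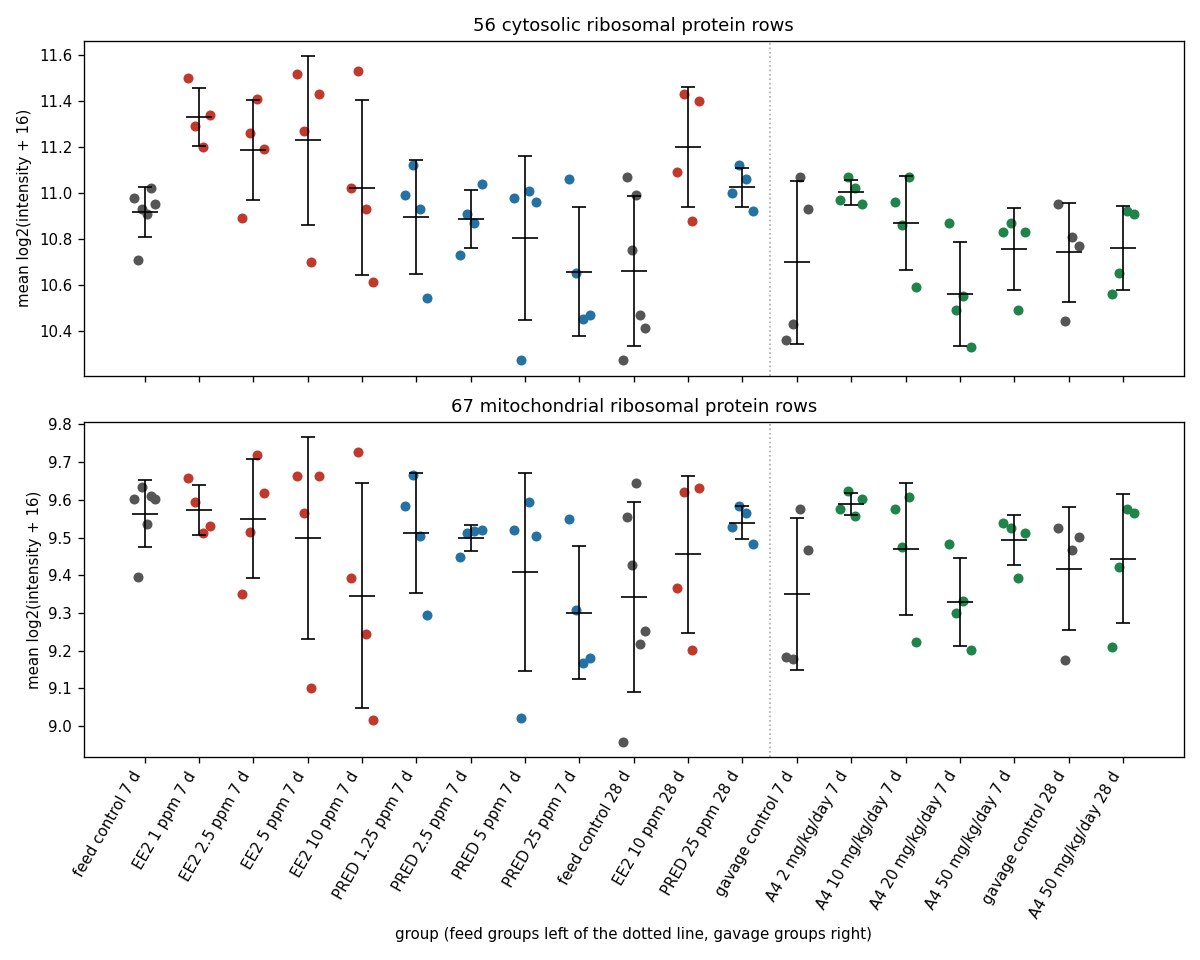
Mean log2(intensity + 16) per array (vertical axes, not from 0) of the 56 cytosolic and of the 67 mitochondrial ribosomal protein rows in the 19 groups (horizontal axis); points are arrays (grey control, red EE2, blue PRED, green A4) and bars the mean ± SD. The cytosolic means of the 4 EE2 1 ppm arrays, at 11.20 to 11.50, lie above all 7 d feed controls, at 10.71 to 11.02, whereas the mitochondrial means of these groups overlap.

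Few members passed under PRED at 7 d. No member passed at 1.25 ppm (background 0.0264% risen) or 2.5 ppm (background 0.0%). There 0 and 1 members had an unadjusted p under 0.05, against 499 and 396 of all 11352 genes. At 5 ppm 1 member rose (background 0.317% risen and 0.282% fallen). It was Rpl23, at 4254, 3792, 5076 and 4187 against the same controls, whose range it overlapped, with a change of 0.34 ± 0.088 (adjusted p = 0.0438). That call was lost in 6 of 10 fits that left out 1 array and with chip as a block. At 25 ppm no member passed (background 6.01% in either direction). The median was -0.31 and 9 members were positive. An unadjusted p under 0.05 was found for 12 of 56 members and for 2232 of the 11352 genes. When the fit held only the groups compared, 4 fell and 1 rose. The most negative was Rpl27 (-0.81, adjusted p = 0.15). The mean log2 value was 10.66 ± 0.28 (n = 4) against 10.92 in the controls, and replicate 1, at 11.06, was above all of them.

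At 28 d PRED at 25 ppm raised 8 members and lowered none (background 4.64% risen and 5.25% fallen), with a median of 0.42 and 52 members positive. The controls were those of EE2 at 28 d, in which members were low. Rpl13a, which in human cells is also released to silence inflammatory mRNAs, read 766, 846, 806 and 802 against 347, 704, 462, 613, 391.9 and 420, with no overlap, a change of 0.74 ± 0.17 (adjusted p = 0.00124). Rpl27a read 444, 494, 487 and 489 against 226 to 378 (median 309), also without overlap, a change of 0.63 ± 0.11 (adjusted p = 4e-05). Under EE2 at 28 d, against those same controls, the changes were 0.66 and 0.56 for these genes. Both calls under PRED remained whichever array was left out. In all, 4 members lay wholly above the controls under PRED at 28 d (background 5.58%), these and Rpl18 and Rplp0.

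The other members risen under PRED at 28 d were less firm. Rps25, which some viral mRNAs need to recruit ribosomes, rose by 0.70 ± 0.22 (adjusted p = 0.0264), Rps10 by 0.64 ± 0.22 (adjusted p = 0.0482) and Rps6 by 0.45 ± 0.15 (adjusted p = 0.0451). These 3 calls remained in 3, 2 and 2 of the 10 fits that left out 1 array. Rps14 (0.37) and Rpl21 (0.11) also rose. Rplp0 passed too, with means of 136.1 and 115.4 (adjusted p = 0.0233), but was undetected on all 4 PRED arrays, so no fold is given. The count of risen members was 2 without PRED replicate 2 or control replicate 5, and 14 without control replicate 4. It was also 2 with the number in the sample names as a random block. With chip as a block it was 6, and the within-chip medians were 0.06 and 0.83. The macrophage sum, 3561 to 4225 under PRED, lay within the range of the controls, and the erythroid sum, 11102 to 15648, overlapped theirs.

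Between durations, the PRED change differed for 1 member (background 0.907% higher and 0.511% lower). Rpl13a rose by 0.85 ± 0.24 more at 28 d than at 7 d (adjusted p = 0.0495), a call lost in 16 of 20 fits that left out 1 array. The median of this difference was 0.69. An unadjusted p under 0.05 was found for 37 of 56 members and for 2148 of the 11352 genes. The trend over the PRED doses at 7 d was positive for 7 members with a median of -0.07 per step. It passed for Rps15a alone, which rose (0.03 per step, adjusted p = 0.0049, background 4.08% risen and 3.23% fallen) and read 103.8 to 112.6 in the controls and 114.1 to 120.6 at 25 ppm, close to background throughout.

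EE2 and PRED were fed at the same concentration at 2.5 and 5 ppm, which allows 2 direct comparisons at 7 d. Equal ppm in feed does not mean equal potency, and EE2 is an estrogen while PRED is a glucocorticoid. At 2.5 ppm 3 members (5.36%) were higher under EE2, a share not above the background (5.78% higher and 4.07% lower). They were Rpl9 by 0.53 ± 0.16 (adjusted p = 0.0255), Rpl22 by 0.49 ± 0.16 (adjusted p = 0.0373) and Rplp0 (adjusted p = 0.0105). Rplp0 averaged 147.4 under EE2 and 119.8 under PRED, detected on 1 of 4 and 0 of 4 arrays, so no fold is given. At 5 ppm 14 were higher (background 9.61% higher and 8.43% lower), among them Rpl12 (1.12 ± 0.29, adjusted p = 0.00328), Rps19 (1.02 ± 0.26, adjusted p = 0.00341), Rps4x (0.79 ± 0.15, adjusted p = 6.84e-05) and Rps6 (0.73). None was lower at either dose. The median differences were 0.30 and 0.45.

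Rps4x at 5 ppm shows the contrast: 17265, 12334, 9082 and 11829 under EE2, 8751, 5914, 6464 and 7609 under PRED. The compounds did not overlap. Other members did not pass, among them Rpl12 at 2.5 ppm (0.82, 95% interval 0.25 to 1.40, adjusted p = 0.0541), Rpl3 at 5 ppm (0.49, 0.09 to 0.88, adjusted p = 0.0756) and Rpl23, with 0.14 (-0.05 to 0.33) at 2.5 ppm and 0.02 (-0.17 to 0.21) at 5 ppm. The count at 5 ppm was 9 to 24 when 1 array was left out and 0 when the fit held only the groups compared. At the top doses, 10 ppm EE2 and 25 ppm PRED, the concentrations differ, and the median changes at 7 d were 0.11 and -0.31.

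No member passed the test under A4. At the 7 d doses, from 2 up to 50 mg/kg/day, and at 28 d the counts were 0 of 56 (background 0.0% in each). At an unadjusted p under 0.05 there were 7, 0, 1, 0 and 0 members, and 596, 225, 303, 429 and 261 of the 11352 genes. The median changes were 0.33, 0.18, -0.14, 0.06 and 0.02, and the smallest adjusted p was 0.9052, for Rpl21 and others at 2 mg/kg/day. At that dose 5 members lay wholly above the controls (background 1.82%), Rpl18, Rpl27a, Rpl9, Rps19 and Rps7. The gavage controls at 7 d were widely spread, with mean log2 values per array of 10.36 to 11.07 against 10.95 to 11.07 at 2 mg/kg/day. For Rpl12 they read 1573 to 4046 and the A4 groups at 7 d 1770 to 3644, so these A4 arrays all lay inside the control range. The trend over A4 doses had a median of -0.03 per step and 0 calls (background 0.0%). The change between durations had a median of -0.06 and 0 calls (background 0.00881%). Each had 0 members at an unadjusted p under 0.05, against 319 and 420 of the 11352 genes.

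Across all 19 groups, 48 of 56 members had their highest group mean in an EE2 group, 34 of them at 1 ppm, and 30 had their lowest at A4 20 mg/kg/day. The share of all genes highest or lowest in these groups is not given here, so these counts stand without a background. At A4 20 mg/kg/day 0 of 56 members passed the test against the gavage controls. The group means spread most for Rps26 (a range of 1.66 on the log2 scale), Rps19 (1.63), Rpl12 (1.56), Rpl35 (1.53) and Rps15 (1.51). Rps26, which lines the channel where mRNA leaves, had a mean intensity of 7278 ± 1642 (SD, n = 4) at EE2 1 ppm against 4317 ± 557 (n = 6) in the 7 d feed controls, and of 2345 ± 802 at A4 20 mg/kg/day against 3162 ± 1138 (n = 4) in the 7 d gavage controls. These ranges span both routes of dosing. Its change at EE2 1 ppm was 0.73 (adjusted p = 0.0537) and at 28 d 0.72 ± 0.27 (adjusted p = 0.0319), the latter lost in 5 of 10 fits that left out 1 array. Between gavage and feed controls no member passed at 7 d (median -0.23, background 0.0%) or 28 d (median 0.08, background 0.0%). At an unadjusted p under 0.05 there were 6 and 0 members, and 1333 and 435 of the 11352 genes.

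Genes that build and serve the ribosome had calls of their own under EE2, to be read against the 6.29%, 7.58%, 12.8% and 18.1% of all genes risen at the 7 d doses and 14.8% at 28 d. Of 32 tested translation factors and other TOP mRNAs, 11, 11, 19 and 16 rose at 1, 2.5, 5 and 10 ppm for 7 d (34.4% to 59.4%) and 13 at 28 d (40.6%), and none fell. At 10 ppm for 7 d Eif3d, an initiation factor subunit, read 3692 ± 319 (SD, n = 4) against 1764 ± 201 (n = 6), a change of 1.06 ± 0.18 (SE, adjusted p = 2.27e-06), and the initiation helicase Eif4a1 rose by 0.91 (adjusted p = 2.39e-10). At 28 d the elongation factor subunit Eef1b2 rose by 0.89 (adjusted p = 0.000344) and Nap1l1, a histone chaperone with a TOP mRNA, by 0.81 (adjusted p = 8.80e-08). At 10 ppm for 7 d the count of this list was thus 16 of 32 where that of the ribosomal proteins was 5 of 56.

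Of 30 ribosome biogenesis genes, 10, 14, 20 and 17 rose at 1, 2.5, 5 and 10 ppm for 7 d (33.3% to 66.7%) and 16 at 28 d (53.3%), while 3, 2, 1, 0 and 1 fell. Nop58, a core protein of the particles that methylate ribosomal RNA, read 1045 ± 274 at 10 ppm for 7 d against 458 ± 98.2, a change of 1.15 ± 0.20 (adjusted p = 5.21e-06), and the nucleolar GTPase Gnl3 rose by 1.10 (adjusted p = 1.45e-07). At 28 d Npm1, the main nucleolar chaperone, rose from 2554 ± 26.8 to 7162 ± 1558 (1.46 ± 0.18, adjusted p = 8.31e-10), and Heatr1, needed to process small-subunit RNA, fell by 0.37 (adjusted p = 0.0255).

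RNA polymerase I, which makes ribosomal RNA, had 10 genes tested, of which 2, 3, 3 and 3 rose at the 7 d doses and 4 at 28 d, while 2 fell at 10 ppm for 7 d and none in the others. At 10 ppm for 7 d the largest subunit Polr1a rose by 0.25 (adjusted p = 0.00184) and Cd3eap by 0.30, while the subunit Znrd1 fell by 0.47 (adjusted p = 0.0357) and the factor Ubtf by 0.17. At 28 d Polr1c, shared with RNA polymerase III, rose by 0.57 (adjusted p = 0.00685).

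The 22 genes of mTORC1 and MYC regulation had calls in both directions. At 10 ppm for 7 d 3 rose and 3 fell, 13.6% each, not above the 18.1% and 15.2% of all genes. At 28 d 6 rose (27.3%) and 4 fell (18.2%), against 14.8% and 13.8%. The largest was Ddit4, a stress-induced inhibitor of mTORC1, with a change of 2.37 ± 0.35 at 7 d (1191 ± 363 against 213 ± 51.2, adjusted p = 1.49e-07) and 2.19 at 28 d (adjusted p = 7.98e-07). The mTOR subunit Mlst8 rose by 0.34 at 7 d, and the inhibitor Akt1s1 and the kinase Mtor fell by 0.43 and 0.34. At 28 d Eif4ebp1, which blocks cap-dependent initiation, rose by 0.81 (adjusted p = 0.0221), and the inhibitors Deptor and Tsc2 fell by 0.54 and 0.53.

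Under PRED at 25 ppm few genes of these lists rose. Of all genes, 3.29% rose and 2.72% fell at 7 d, and 4.64% rose and 5.25% fell at 28 d. For 7 d 2 translation genes rose, Nap1l1 by 0.97 (adjusted p = 7.41e-09) and Eif2s2, a subunit of the factor that brings the initiator tRNA, by 0.52 (adjusted p = 0.00175). Pes1 of the biogenesis list rose by 0.57 (adjusted p = 0.0252), and 9 of 67 mitochondrial ribosomal proteins (13.4%) fell. For 28 d Nap1l1 and Eef1b2 rose by 0.65 and 0.60, Ddit4 by 1.22 (adjusted p = 0.0129), Nolc1 by 0.12 and Polr1e by 0.37. Of the 22 mTORC1 and MYC genes 4 fell (18.2%), among them Deptor by 0.61 and Sesn1, another inhibitor of mTORC1, by 0.40.

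**Figure D5:**
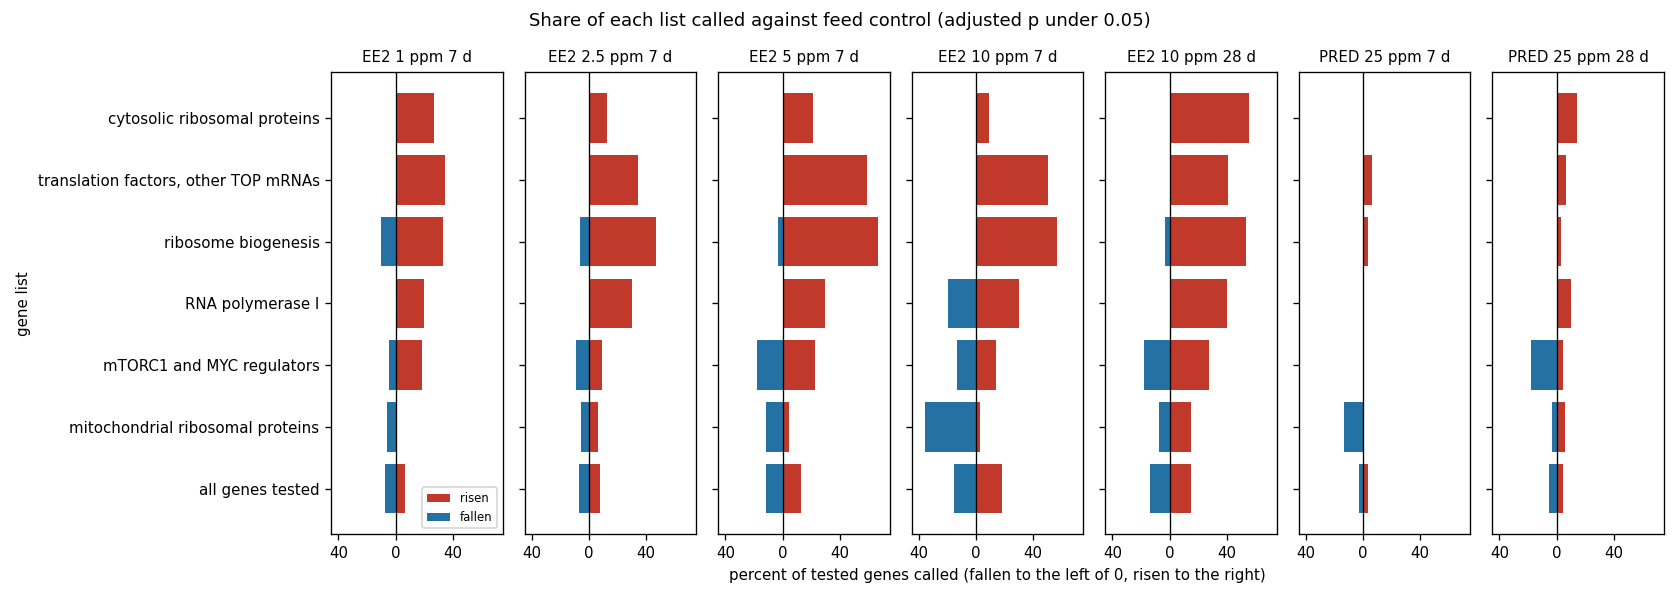
Percent of the tested genes of each list (vertical axis) that rose (red, to the right of 0) or fell (blue, to the left) at an adjusted p under 0.05 in the 5 EE2 and the 25 ppm PRED comparisons with feed control. At EE2 10 ppm for 7 d the cytosolic ribosomal proteins reach 8.93%, less than all genes tested (18.1%), and at 28 d 55.4%, against 14.8% of all genes tested.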

How the data were processed

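The deposited table holds, for each gene symbol and array, a normalized intensity on a linear scale and, beside it, the authors' detection p-value. Per the submitters' processing notes the arrays were processed with GenomeStudio. Which normalization they used is not stated in the sources at hand, but sorted intensities were nearly the same on all arrays, within 8.84% at the top. Per the labels' protocols, RNA was extracted with Trizol and RNeasy and made into biotinylated cRNA. All deposited intensities lay between 85.9 and 19761, with the array medians at background, and none appears background-subtracted.

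Groups come from the titles. A limma model (version 3.58.1, R 4.3.3, statmod 1.5.0 for the random block) was fitted to log2(value + 16), in 1 fit of 19 groups with 61 residual degrees of freedom. Tables and figures used Python 3.11.15, pandas 2.3.3 and matplotlib 3.10.9. Tests were two-sided, adjusted by Benjamini-Hochberg over the 11352 genes detected on at least 4 arrays (8 control entries left out). All adjusted p-values are limma's. For Rplp0, Rpl4 and Rpl37 no fold is given where one group never detected them. The lowest detected signal of each array was 100.1 to 102.6. Arrays lay on 10 chips of 8, each with 6 to 8 groups, and within-chip values are given where they bear on a count. 9 numbers in the sample names, of unstated meaning, were shared by 19 arrays and served as a random block in an alternative.

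Members and gene lists were chosen with earlier results of these data known. Named members are the 5 largest changes in each direction past the threshold at each top dose, the 5 highest and 3 lowest means, the 5 widest ranges of group means, members with a role or paralogue of their own (22 of 29 listed are in the table), and from each list the 2 largest changes in each direction at the top doses. Other members are named to complete a small count, an extreme or a side-by-side value, and were chosen after their values were seen. Some members are counted but not reported by name here. Alternatives changed the pseudocount, filter, background, normalization, chip or number block, groups in the fit and prior, and left out each array. 2 covariates were added after seeing the data.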

Additional observations from a re-analysis of the deposited data

Results flagged for a closer look

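Checks of named members and of the member mean within each group found an array far from the others of its group in 16 cases, 10.5% of the checks, where chance alone gives about 1 in 20. The values that follow are on the log2(intensity + 16) scale.

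Control replicate 2 of the 7 d feed controls stood apart in 3 of them. Its mean over the members was 10.71, against 10.91 to 11.02 on the other arrays. Its Rpl3 was 11.30 (others 12.30 to 12.58), while its Rps4x was 13.36 (others 12.81 to 12.87), so the array was low for one and high for the other. In the same group replicate 5 had the highest Rpl22, at 9.77 (others 9.37 to 9.50).

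Among EE2 arrays, Rpl3 was highest at 13.04 in 10 ppm 7 d replicate 1 (others 12.90 to 12.92), and Rpl23 at 12.25 in 2.5 ppm replicate 2 (others 12.12 to 12.13). These gaps are small in size.

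Among PRED arrays, the member mean was lowest at 10.27 in 5 ppm replicate 2 (others 10.96 to 11.01). Rpl3 was lowest at 11.08 in 1.25 ppm replicate 4 (others 12.56 to 12.68). Rplp0 was highest at 7.19 in 2.5 ppm replicate 4 (others 7.04 to 7.06), and Rpl22l1 at 7.30 in 25 ppm 7 d replicate 1 (others 6.84 to 6.89), which also had the highest member mean of its group. At 28 d Rpl12 was highest at 11.99 in replicate 2 (others 11.66 to 11.70), and Rps4x at 12.97 in replicate 4 (others 12.78 to 12.79).

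Among gavage arrays, Rpl3 was highest at 12.84 in A4 50 mg/kg/day 28 d replicate 2 (others 12.22 to 12.30), and Rps4x lowest at 12.52 in replicate 1 of that group (others 12.86 to 12.93). The member mean was lowest at 10.49 in A4 50 mg/kg/day 7 d replicate 3 (others 10.83 to 10.87), and Rpl22 at 9.25 in gavage control 7 d replicate 4 (others 9.47 to 9.51).

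The PRED change of Rpl13a differed between durations by 0.85 (adjusted p = 0.0495 by limma's test of the difference).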

How the results depend on the processing

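No paired analysis was possible because the labels give no replicate numbers, and the numbers used here only name arrays. No named change reversed: of 387 alternative fits of 30 named changes, 360 stayed past the threshold in the same direction and 27 fell short of it. Fits that left out 1 array are not in this count. In those, a named call was kept in 2 to 10 of 10 fits, with 2 for Rps10 and Rps6 under PRED at 28 d. The causes of the changes in counts below were not tested, and the share of all genes called in each alternative fit is not given here.

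With the mitochondrial ribosomal mean as a covariate, the called members numbered 39, 27, 40 and 37 at EE2 1, 2.5, 5 and 10 ppm for 7 d, 36 for the EE2 trend, 1 for PRED 25 ppm 7 d, 5 for PRED 28 d, 3 for the PRED trend, 0 for the PRED change between durations, and 14 and 26 for EE2 minus PRED at 2.5 and 5 ppm. With detected genes as a covariate they numbered 36, 9, 36, 23 and 47 at EE2 1, 2.5, 5 and 10 ppm for 7 d and at 28 d, 20 for the EE2 trend, 1 for the EE2 change between durations, 1 and 2 for PRED 25 ppm at 7 and 28 d, 0 for the PRED change between durations, and 5 and 36 for EE2 minus PRED. When the fit was limited to the groups compared they were 23 and 6 at EE2 1 and 5 ppm, 3 for the EE2 trend, 0 at PRED 5 ppm, 5 and 3 at PRED 25 ppm 7 and 28 d, 2 for the PRED trend, 5 for the PRED change between durations, and 1 and 0 for EE2 minus PRED. Chip as a block gave 3 at EE2 10 ppm 7 d, 0 at PRED 5 ppm, 2 for the PRED trend and 0 for the PRED change between durations.

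The number block, with a correlation of 0.378, gave 26 at EE2 28 d, 0 at PRED 5 ppm, 2 at PRED 28 d and 0 for the PRED change between durations. With no filter the counts were 0 at PRED 5 ppm, 5 at PRED 28 d and 0 for the PRED change between durations. A filter of 40 arrays gave 2 for the PRED trend and 2 for that change. Centring on medians and renewed quantile normalization each gave 1 at PRED 25 ppm 7 d and 0 for that change, the latter also 2 for the PRED trend. Background subtraction gave 0 for that change, a pseudocount of 64 gave 1 at PRED 25 ppm 7 d, and a trended robust prior gave 1 there and 0 at PRED 5 ppm.

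Leaving out 1 array at a time gave 6 to 21, 3 to 9, 7 to 21 and 4 to 8 members at EE2 1, 2.5, 5 and 10 ppm for 7 d, 22 to 34 at 28 d, 5 to 8 for the EE2 trend and 0 to 4 for the EE2 change between durations. It gave 0 to 1 at PRED 5 ppm, 0 to 2 and 2 to 14 at 25 ppm for 7 and 28 d, 1 to 4 for the PRED trend, 0 to 14 for the PRED change between durations, 1 to 5 and 9 to 24 for EE2 minus PRED, and 0 to 1 for the feed controls between durations. The counts of 0 for PRED at 1.25 and 2.5 ppm, A4 and gavage against feed stayed at 0 in all alternatives run. Signal over background limits Rpsa, Rps15a, Rpl21, Rpl22l1 and Rplp0, whose intensities lay near the array medians.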
